A study of Mus musculus with 53 samples.

Results

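The genes described here were 10 enzymes that remove or add acetyl groups on lysine. There were 8 histone deacetylases, namely Hdac1, Hdac2, Hdac3, Hdac4, Hdac5, Hdac6, Hdac9 and Hdac11, and 2 acetyltransferase coactivators, Ep300 and Kat2b. They were chosen by name as rows of a count table of 12372 genes, and all 10 were found and tested. Levels were compared between 4 brain regions, and SCA3 mice were compared with wild-type mice within each region.

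Histone acetyltransferases place acetyl groups on histone tails, which loosens chromatin and recruits bromodomain proteins, while deacetylases take them off again. Class I deacetylases (Hdac1, Hdac2 and Hdac3) work in the nucleus as the catalytic core of corepressor complexes. Class IIa enzymes (Hdac4, Hdac5 and Hdac9) shuttle between nucleus and cytoplasm and hold MEF2 transcription factors in check, and in neurons their position follows calcium signalling. Hdac6 is a mainly cytoplasmic enzyme that deacetylates tubulin, Hdac11 is the only class IV member, Ep300 (p300) is a coactivator closely related to CREB binding protein, and Kat2b (PCAF) is a catalytic subunit of large coactivator complexes.

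The SCA3 group were male hemizygous MJD84.2 mice, in which human ATXN3, whole, with a lengthened CAG repeat and under its own promoter, is present beside both copies of mouse Atxn3. The wild-type group were male C57BL/6 mice. None was treated, and both groups had been through the same behavioural tests and were sampled at about 17.5 months of age (74 to 77 weeks). The age of 74 weeks occurred only in SCA3 mice (9083513, 9083514 and 9083515), and wild-type mice were 75 or 77 weeks old. Poly-A RNA of dissected tissue was sequenced from 14 mice (8 wild-type and 6 SCA3), giving 53 libraries: 8 from wild-type and 6 from SCA3 brainstem, 7 and 6 from cerebellum, 7 and 6 from cortex, and 8 and 5 from striatum. Values are CPM, the reads of a gene relative to the TMM-scaled library total, and differences are log2 ratios from an edgeR likelihood ratio test across all genes, called at a false discovery rate (FDR) below 0.05. These were pieces of whole tissue, so fewer cells of a type and less RNA per cell cannot be told apart.

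Libraries held 31.7 to 76.7 M counts (M for mega, median 57.7 M), and a member was covered by 344 to 22557 counts per library. Of the marker lists, 12 markers of striatal projection neurons summed to 3163 to 12894 CPM in wild-type striatum, to 1181 to 4550 CPM in wild-type cortex, which overlapped with striatum, and to at most 830 CPM in wild-type brainstem. The 6 granule cell markers summed to at least 2431 CPM in wild-type cerebellum and at most 203 CPM in wild-type libraries of the other regions. The 12 thalamic markers are not particular to thalamus. In wild-type mice they summed to 1623 to 1956 CPM in cerebellum, 814 to 1346 in brainstem, 276 to 597 in cortex and 262 to 3142 in striatum. A thalamic marker score (mean log2 CPM of 12 genes) was more than 1 above the median of its region in 3 libraries, all wild-type. They were striatum of mice 7267058 and 7267059, by 2.62 and 2.93, and brainstem of mouse 7267055, by 1.07. Only the striatal libraries stood far above this cut. Just under it, and kept, were SCA3 brainstem of mice 9083515 (0.999) and 9083514 (0.942) and SCA3 cortex of mouse 7267056 (0.999). Wild-type striatum of mouse 9083373 (0.919) was also kept. There were 4 libraries with an RNA integrity number (RIN) below 7. They were striatum of wild-type mice 7267055 (6) and 7267058 (6.2) and of SCA3 mouse 7267054 (5.7), and brainstem of wild-type mouse 7267059 (6.3). Fits without them therefore held fewer striatal libraries of both genotypes. Genotype calls of members that changed without the high-score or the low RIN libraries are given with the FDR of that fit. So are regional calls that changed without the high-score libraries.

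A pair of members, Hdac9 and Hdac11, were called between genotypes, so their promoters are printed here. They come from the RefSeq annotation of GRCm38.p6 and run from 250 bases before to 50 after a transcript start, on the gene's own strand. Capitals mark a match, on either strand, to the CRE half-site TGACG, the GC box GGGCGG or the MEF2 consensus (CTA, any 4 bases, TAG). The full CRE TGACGTCA, which contains the half-site, was also searched and was not found in these windows.
Hdac11, chr6:91156565-91156864, plus strand: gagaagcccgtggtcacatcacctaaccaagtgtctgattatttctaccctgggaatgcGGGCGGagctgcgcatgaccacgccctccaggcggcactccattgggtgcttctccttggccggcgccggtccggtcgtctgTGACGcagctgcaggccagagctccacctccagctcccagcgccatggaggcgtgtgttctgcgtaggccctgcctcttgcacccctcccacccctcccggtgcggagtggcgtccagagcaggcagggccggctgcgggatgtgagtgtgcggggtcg
Hdac9 first start, chr12:34917046-34917345, minus strand: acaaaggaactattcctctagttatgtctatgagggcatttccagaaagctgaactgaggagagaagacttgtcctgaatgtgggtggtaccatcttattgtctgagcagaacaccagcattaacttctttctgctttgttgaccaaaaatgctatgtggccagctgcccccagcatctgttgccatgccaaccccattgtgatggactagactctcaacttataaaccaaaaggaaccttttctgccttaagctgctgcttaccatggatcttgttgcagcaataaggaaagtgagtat
Hdac9 second start, chr12:34528840-34529139, minus strand: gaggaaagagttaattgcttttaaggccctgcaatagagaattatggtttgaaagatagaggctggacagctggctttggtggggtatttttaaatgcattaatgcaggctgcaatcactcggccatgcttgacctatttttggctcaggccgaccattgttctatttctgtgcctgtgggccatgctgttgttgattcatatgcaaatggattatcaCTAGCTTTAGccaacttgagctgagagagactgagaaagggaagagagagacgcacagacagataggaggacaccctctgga
The Hdac11 window was rich in CG dinucleotides (22, against a median of 7 over 32851 promoters) and held 1 GC box and 1 CRE half-site. The first Hdac9 start had no CG dinucleotide and none of the motifs, and its second start had 3 CG dinucleotides and 1 MEF2 match. Of all 300-base promoters, 20.8% held the CRE half-site, 35.7% the GC box, 3.69% the MEF2 consensus and 1.79% the full CRE.

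Hdac11 lies at chr6:91156665-91174692 and Hdac9 at chr12:34047580-34917095 (GENCODE M21, GRCm38). Reads were counted without strand. An unclassified transcript on the opposite strand, Gm44002, shared 594 exon bases with Hdac11 (15.4% of its exon bases), an antisense transcript shared 96, and a long non-coding RNA, Gm26720, shared 3536 with Hdac4 (22.4%), so reads from these stretches cannot be assigned to a strand. No such overlap was annotated for exons of Hdac9, Hdac6 or Kat2b.

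Scaled to exon length, Hdac11 was the most abundant member in wild-type brain, at 48.1 to 74.5 CPM per kb of exon over the 4 regions. Hdac2, Hdac3 and Hdac5 followed at averages of 21.7, 24.1 and 23.5 CPM per kb. Kat2b, Hdac6 and Ep300 averaged 14.4, 12.0 and 8.37 CPM per kb. Hdac1, Hdac4 and Hdac9 were the lowest, at 4.08, 3.54 and 2.74 CPM per kb. With the longest transcript in place of all exons, 5 of the 10 ranks changed, by at most 2 places, and Hdac11 and Hdac9 stayed at the ends of the order.

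**Figure D1:**
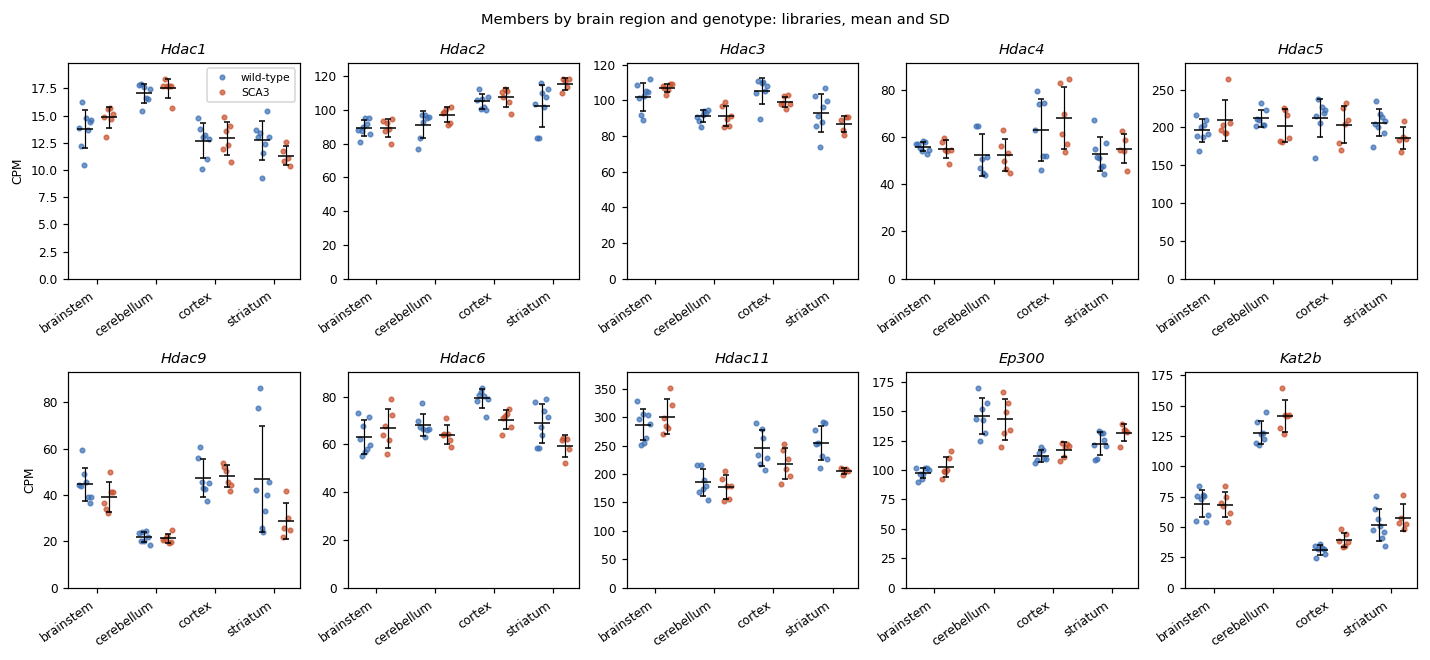
CPM of each member (vertical axis from 0) by brain region, with 1 point per library, blue for wild-type and orange for SCA3, and the mean and SD in black. Kat2b is highest in cerebellum and lowest in cortex, Hdac9 is lowest in cerebellum, and in striatum the SCA3 points of Hdac11 lie below every wild-type point.

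Regional levels were compared in wild-type mice first. Kat2b had by far the widest regional range and Hdac5 the narrowest. Of 60 comparisons (10 members, 6 pairs of regions), 34 were called. By pair of regions, 6 of 10 members were called between brainstem and cerebellum, where 72.6% of all genes were called, 5 between brainstem and cortex (65.4%), 4 between brainstem and striatum (64.2%), 9 between cerebellum and cortex (69.7%), 6 between cerebellum and striatum (69.5%) and 4 between cortex and striatum (34.4%). Groups did not overlap in 4 members between brainstem and cerebellum (48.1% of all genes), 3 between brainstem and cortex (29.3%), 1 between brainstem and striatum (19.2%), 5 between cerebellum and cortex (41.9%), 1 between cerebellum and striatum (37%) and 0 between cortex and striatum (4.66%). The median span between the highest and lowest region was 0.38 on the log2 scale for the members and 0.58 for all genes.

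Kat2b ran from cerebellum through brainstem and striatum down to cortex. It stood at 118 to 145 CPM in wild-type cerebellum (median 127, n = 7), 54.0 to 84.1 in brainstem (median 74.4, n = 8), 34.7 to 75.3 in striatum (median 48.9, n = 8) and 24.2 to 36.1 in cortex (median 32.4, n = 7). Cerebellum overlapped with no other region, and brainstem did not overlap with cortex. All 6 pairs were called, and neighbours in this order differed by 0.88 (SE 0.12), 0.42 (SE 0.12) and 0.73 (SE 0.12) on the log2 scale. Without the high-score libraries brainstem lay 0.63 (SE 0.11) above striatum. The whole span was 4.09-fold, wider than in 91.9% of all genes. Over the 30 wild-type libraries the genes whose log2 CPM followed Kat2b most closely were Mtus1 (r = 0.983), St18 (r = 0.975) and Tbc1d4 (r = 0.972), and these libraries share their regions.

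Ep300, the other acetyltransferase, was likewise highest in cerebellum, but its lowest region was brainstem and its span was 1.49-fold. It stood at 124 to 169 CPM in wild-type cerebellum (median 143), 108 to 133 in striatum (median 123), 106 to 120 in cortex (median 110) and 90.0 to 102 in brainstem (median 98.0). Brainstem overlapped with no other region, and 5 of 6 pairs were called. The exception was striatum against cortex (log2 0.13, SE 0.06, FDR 0.10), which was called without the 3 libraries of high thalamic score (log2 0.18, FDR 0.019). The genes closest to Ep300 over the same 30 libraries were Phf2 (r = 0.973), Pcif1 (r = 0.956) and Pcdhgb6 (r = 0.952).

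Hdac9 was low in cerebellum and, with all libraries, did not pass the test between the other 3 regions. It stood at 18.5 to 24.5 CPM in wild-type cerebellum (median 22.1), 36.5 to 59.4 in brainstem (median 44.1), 37.4 to 60.7 in cortex (median 45.2) and 24.2 to 86.1 in striatum (median 41.2). Cerebellum did not overlap with brainstem or cortex and lay 1.03 (SE 0.17), 1.11 (SE 0.18) and 1.09 (SE 0.17) below brainstem, cortex and striatum on the log2 scale. Without the high-score libraries, the log2 ratio of cerebellum over striatum was -0.68 (SE 0.14), still called. Striatum had by far the widest spread, with a coefficient of variation of 49.0% against 10.5% to 17.2% in the other regions. Its 2 highest values, 77.5 and 86.1 CPM, belonged to mice 7267058 and 7267059, whose striatal libraries had the high thalamic scores. Without the high-score libraries, striatum fell below brainstem (log2 brainstem over striatum 0.34, SE 0.14, FDR 0.019, against -0.07 with them) and below cortex (log2 cortex over striatum 0.42, SE 0.14, FDR 0.0088, against 0.01). Hdac9 was followed most closely by 1810041L15Rik (r = 0.943), Adgra1 (r = 0.928) and Atp6ap2 (r = 0.923).

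Hdac5, another class IIa member, had group means of 196 to 212 CPM in the 4 wild-type regions and 0 of 6 pairs called, with a span narrower than in all but 1.9% of genes. Its largest pairwise difference, brainstem against cortex, had a log2 ratio of -0.11 with a 95% interval from -0.27 to 0.04. That difference was called without mouse 7267055 (log2 -0.20, SE 0.07, FDR 0.014). Hdac4 had group means of 52.4 to 63.0 CPM, with cortex above cerebellum (log2 0.27, SE 0.11, FDR 0.024) and above striatum (log2 0.26, SE 0.11, FDR 0.045), and cortical libraries spread widely from 46.1 to 79.6 CPM. The second of these calls was lost with limma-voom (FDR 0.064), with RLE size factors (FDR 0.051) with the wild-type libraries alone (FDR 0.062) and without the high-score libraries (FDR 0.069). Leaving out mouse 7267058, 7267059, 9082853, 9082857, 9083373 or 9083514 also lost it (FDR 0.052 to 0.24), and the call over cerebellum was lost without mouse 7267058, 9082857 or 9083373 (FDR 0.10 to 0.15).

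Hdac11 was highest in brainstem and lowest in cerebellum. It stood at 252 to 328 CPM in wild-type brainstem (median 293), 210 to 292 in striatum (median 254), 207 to 290 in cortex (median 233) and 154 to 216 in cerebellum (median 179). Brainstem and cerebellum did not overlap and differed by 0.63 (SE 0.09) on the log2 scale, and cortex lay 0.41 (SE 0.09) above cerebellum. Brainstem lay 0.22 (SE 0.09, FDR 0.016) above cortex, a call that was lost without mouse 7267058, 9082857 or 9083373 (FDR 0.052, 0.063 and 0.0995). Brainstem and striatum did not pass the test (log2 0.17, SE 0.08, FDR 0.057). They did with the mouse as a block, which pairs the libraries of a mouse (limma-voom, FDR 0.036), with DESeq2 (FDR 0.046), and without mouse 7267059 or 9083372 (FDR 0.041 and 0.032). With the wild-type libraries alone and the mouse as a block it was not called (log2 0.17, SE 0.08, FDR 0.060). The closest genes were Ctxn2 (r = 0.965), Tmem130 (r = 0.956) and Pomgnt2 (r = 0.956).

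The class I members and Hdac6 had narrower regional spans than Kat2b, Hdac9, Hdac11 and Ep300, of at most 1.35-fold (Hdac1). Hdac1 was highest in cerebellum, at 17.0 ± 0.91 CPM (SD, n = 7) against 13.8 ± 1.77 (n = 8) in brainstem, and this difference was called (log2 0.30, SE 0.09, FDR 0.00063). Hdac2 was higher in cortex and striatum (105 ± 4.54 and 102 ± 12.5 CPM) than in cerebellum and brainstem (91.3 ± 7.96 and 89.4 ± 4.77 CPM), with all 4 of these pairs called; cerebellum against striatum had a log2 ratio of -0.16 with all libraries and -0.25 without the high-score ones. Hdac3 was higher in cortex and brainstem (105 ± 7.33 and 102 ± 7.87 CPM) than in striatum and cerebellum (93.0 ± 10.7 and 91.1 ± 3.42 CPM), again with those 4 pairs called. Brainstem over striatum (log2 0.13, FDR 0.025 with all libraries) was not called without the high-score libraries (FDR 0.15) or with the wild-type libraries alone (FDR 0.072). That call was also lost without mouse 7267058, 9083371, 9083372 or 9083375 (FDR 0.069, 0.091, 0.058 and 0.0501), Hdac3 cortex over striatum without mouse 7267058 (FDR 0.0501), and Hdac2 cerebellum against striatum without mouse 7267055 (FDR 0.054). Hdac6 was highest in cortex at 79.3 ± 3.88 CPM, above striatum by 0.20 (SE 0.07, FDR 0.014). This last call was lost without mouse 7267058 or 9083371 (FDR 0.076 and 0.067) and without the high-score libraries (log2 0.13, FDR 0.11). Without them brainstem was called lower than striatum in Hdac6 (log2 -0.23, SE 0.07, FDR 0.0013, against -0.13 and FDR 0.090 with them) and lower than cerebellum (log2 -0.14, FDR 0.038, against -0.11 and FDR 0.14).

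**Figure D2:**
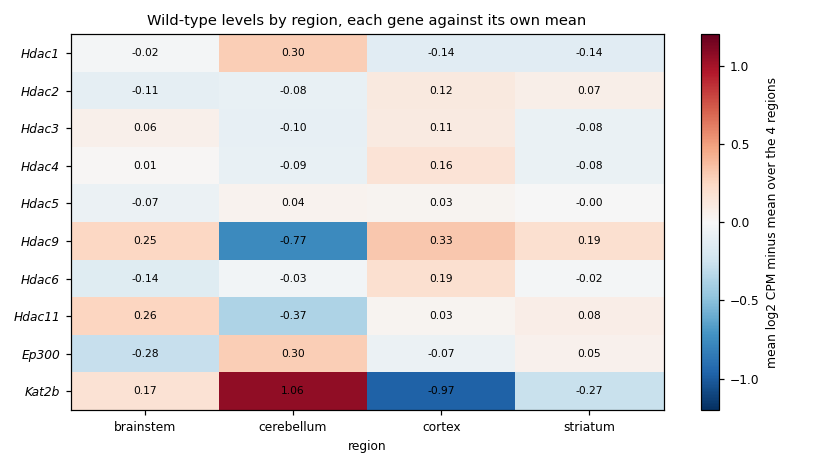
Mean log2 CPM of each member (rows) in each wild-type region (columns) minus the member's mean over the 4 regions, with the value printed in each cell and red for higher. Kat2b spans 2.03 between cerebellum and cortex, Hdac9 is low in cerebellum, and Hdac5 spans 0.11.

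SCA3 mice were then compared with wild-type mice within each region. Hdac9 and Hdac11 were called lower in SCA3 striatum, and no member was called in brainstem, cerebellum or cortex. Of 40 comparisons (10 members, 4 regions) 2 were called. In striatum 2 of 10 members were called, both lower, where 7.54% of all genes were called and 5.47% were called lower. In brainstem 0 of 10 were called where 1.92% of all genes were, in cerebellum 0 of 10 (0.0647%) and in cortex 0 of 10 (0.154%), with edgeR. At an unadjusted p below 0.05 there were 0 members in brainstem (13.3% of all genes), 0 in cerebellum (1.66%), 2 in cortex (4.07%) and 4 in striatum (23.2%). DESeq2, limma-voom and the quasi-likelihood test likewise called 0 members in brainstem, cerebellum and cortex.

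**Figure D3:**
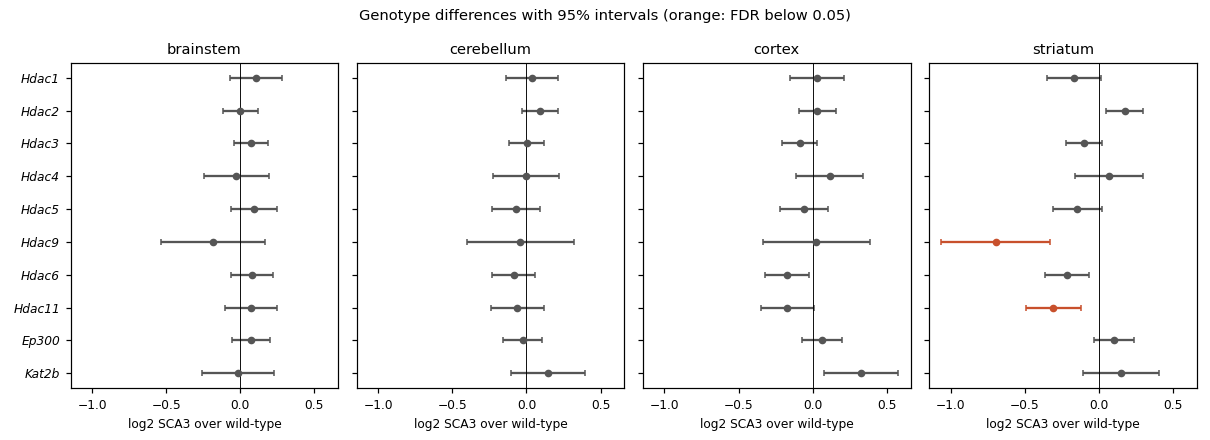
Log2 ratio of SCA3 over wild-type for each member (rows) in each region (panels), with bars for the 95% interval and orange for an FDR below 0.05. The orange points are Hdac9 and Hdac11 in striatum, and the intervals of most other members span 0.

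Hdac9 was lower in SCA3 striatum on average, but most of the size of this difference came with 2 wild-type libraries. The 5 SCA3 libraries stood at 22.1, 25.8, 41.7, 30.3 and 24.8 CPM. The 8 wild-type libraries ran from 24.2 to 86.1 CPM with a median of 41.2. The groups overlapped, and the wild-type libraries of mice 7267058 and 7267059, at 77.5 and 86.1 CPM, stood well above the remaining 6, which ran from 24.2 to 45.7 CPM. The fitted log2 ratio was -0.69 (SE 0.19, FDR 0.010), a level 0.618 times that of wild-type. Without the libraries of high thalamic score it was -0.28 (SE 0.15, FDR 0.36), with the thalamic score as a covariate -0.12 (SE 0.12, FDR 0.71) and without the libraries of RIN below 7 -0.47 (SE 0.20, FDR 0.21), and in these 3 cases Hdac9 was not called. It was also not called with limma-voom (FDR 0.051) or limma-voom with a replicate block for the mouse (log2 -0.58, FDR 0.052). With the striatal libraries alone the ratio was -0.69 with a wider error (SE 0.30, FDR 0.29), and in the largest mouse series alone it was -0.38 (SE 0.18, FDR 0.53). In all, 6 of 13 alternatives called Hdac9, not counting fits that left out 1 mouse or were chosen after the data were seen. Leaving out 1 mouse at a time gave ratios between -0.86 and -0.51, and the call was lost without wild-type mouse 7267058 or 7267059 (FDR 0.053 and 0.065) and without SCA3 mouse 7267054, 7267056 or 9083515 (FDR 0.078, 0.067 and 0.072).

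Markers moved with Hdac9 in striatum. All 12 thalamic markers were measured and had negative ratios in SCA3 striatum, 7 of them called, and their summed level ran from 262 to 3142 CPM in the wild-type and from 268 to 616 CPM in the SCA3 libraries, with no marker near 0. The 12 measured markers of striatal projection neurons (of 13 listed) all had positive ratios and 0 were called, and they summed to 3163 to 12894 CPM in wild-type and 7984 to 12039 CPM in SCA3. With the score of the latter list as a covariate, the Hdac9 ratio was -0.06 (SE 0.12, FDR 1.00), in a fit chosen after the data were seen. Other marker lists moved too. The 10 astrocyte markers, all measured, had negative ratios with 5 called lower and a median of -0.34, and they summed to 4482 to 6291 CPM in wild-type and 4574 to 5121 CPM in SCA3. The 14 mature oligodendrocyte markers also had negative ratios, 6 of them called, and summed to 7357 to 21667 CPM in wild-type and 6817 to 10462 CPM in SCA3. With the oligodendrocyte score as a covariate, likewise chosen after the data were seen, the Hdac9 ratio was -0.34 (SE 0.17, FDR 0.22). Of 7 measured markers of oligodendrocyte precursors 4 had positive ratios, 1 of them called higher and 0 called lower (median 0.15), and they summed to 269.6 to 315.3 CPM in wild-type and 289.2 to 330.2 CPM in SCA3. Of 6 measured granule cell markers 4 had negative ratios and 2 were called lower (median -0.54). They summed to 83.9 to 198 CPM in wild-type and 87.3 to 160 CPM in SCA3. Of 6 measured Purkinje cell markers 1 was called lower, as was 1 of 10 markers of neurons in general. The parts of astrocytes, precursors and the lists last named were not tested. Mice fall into 3 series by the leading digits of their numbers: the log2 difference was -1.46 in the series of mouse 7267058 (2 SCA3, 3 wild-type), 0.69 in that of 9082857 (1 of each) and -0.34 in that of 9083371 (2 and 4). In this last and largest series the wild-type mice (9083371 to 9083375) were 75 weeks old and the SCA3 mice (9083513 to 9083515) 74 weeks. Genotype cannot be told apart from age or number block there. The part of tissue composition in the Hdac9 difference was not tested beyond these fits.

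**Figure D4:**
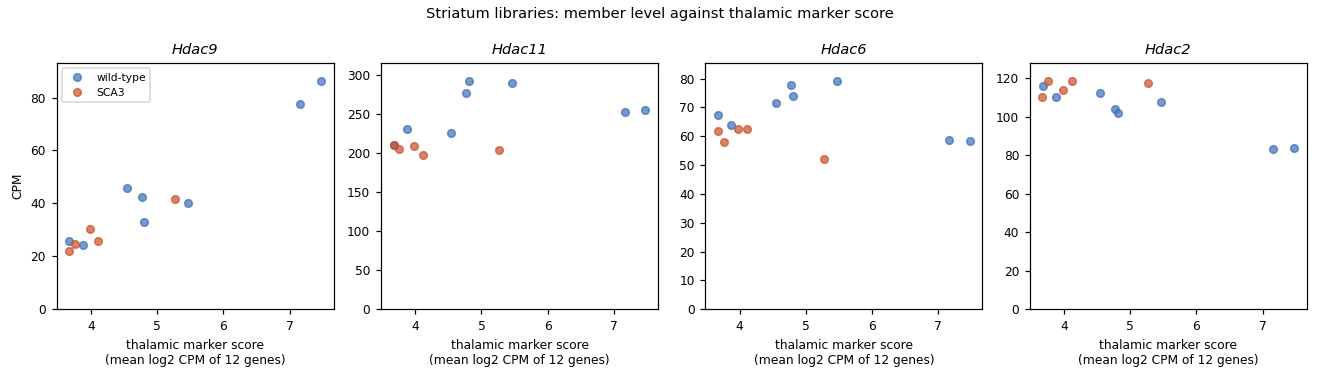
CPM of Hdac9, Hdac11, Hdac6 and Hdac2 (vertical axes from 0) in the 13 striatum libraries against the thalamic marker score (mean log2 CPM of 12 genes), blue for wild-type and orange for SCA3. The 2 wild-type libraries with scores of 7.16 and 7.48 hold the highest Hdac9 and the lowest Hdac2 values (83.3 and 83.6 CPM) and the lowest wild-type Hdac6 values, while their Hdac11 values lie amid those of wild-type.

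Hdac11 was lower in every SCA3 striatum library than in every wild-type one, by a small margin at the boundary. The SCA3 libraries stood at 209.8, 197.6, 204.4, 209.4 and 205.8 CPM and the wild-type libraries ran from 210.4 to 292.0 CPM with a median of 253.9. The groups did not overlap, which held for 1 of 10 members and 0.655% of all genes in striatum, and for 0 members in brainstem (1.38% of all genes), cerebellum (0.234%) and cortex (0.251%). Within striatum, the SCA3 values had a coefficient of variation of 2.4% against 12.0% in wild-type. The fitted log2 ratio was -0.31 (SE 0.09, FDR 0.025), a level 0.808 times that of wild-type. Libraries 7267058 and 7267059 stood in the middle of the wild-type range at 252.8 and 255.0 CPM.

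The size of the Hdac11 difference barely moved with the choice of libraries, but its call did. Without the libraries of high thalamic score the ratio was -0.31 (SE 0.10, FDR 0.075), without those of RIN below 7 it was -0.30 (FDR 0.145), with the striatal libraries alone it was -0.31 (FDR 0.11), and in the largest mouse series alone -0.32 (SE 0.14, FDR 0.41), each not called. With the thalamic score as a covariate it was -0.27 and called (FDR 0.029), and it was called with the replicate block (log2 -0.30, FDR 0.042). Of 13 alternatives 9 called it, counted as for Hdac9. Leaving out 1 mouse at a time gave ratios between -0.34 and -0.28, called in 9 of 14 cases. The call was lost without SCA3 mouse 7267054, 7267056 or 9083515 (FDR 0.057, 0.095 and 0.083) and without wild-type mouse 9083372 or 9083373 (FDR 0.073 for each). The difference was -0.36, -0.04 and -0.31 within the same 3 number series. With the score of the mature oligodendrocyte markers as a covariate the Hdac11 ratio was -0.33 and called (FDR 0.010). With the score of the projection neuron markers, of which 12 of 12 measured had positive ratios, it was -0.23 (SE 0.09, FDR 0.55) and not called. Both fits were chosen after the data were seen, and the part of astrocytes was not tested.

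Hdac6, the tubulin deacetylase, was the member nearest to a call after these. Its SCA3 striatum libraries stood at 61.8, 62.5, 52.2, 62.4 and 57.9 CPM against 58.5 to 79.1 CPM in wild-type (median 69.5). The groups overlapped only through the 2 high-score wild-type libraries at 58.5 and 58.6 CPM, the other 6 lying between 64.0 and 79.1 CPM. The ratio was -0.21 (SE 0.08, FDR 0.061), and without the high-score libraries it was -0.28 (SE 0.07, FDR 0.011) and called, where 2.42% of all genes were called. With the thalamic score as a covariate it was -0.29 (FDR 0.0045), also called, where 1.97% of all genes were. DESeq2 called it as well (FDR 0.049), so 3 of 13 alternatives called it, not counting fits that left out 1 mouse or were chosen after the data were seen. Of the latter, the one with the oligodendrocyte score as a covariate called it (log2 -0.34, FDR 1.5e-06). It was not called without the libraries of RIN below 7 (FDR 0.12), with the striatal libraries alone (FDR 0.32), in the largest mouse series alone (FDR 0.37) or with the projection neuron score as a covariate (FDR 0.37). The ratio lay between -0.29 and -0.21 over the 13 alternatives, and between -0.24 and -0.17 with 1 mouse left out. Of 14 fits that left out 1 mouse, 4 called it, those without wild-type mouse 7267058, 7267059, 9082857 or 9083371 (FDR 0.045, 0.042, 0.043 and 0.041).

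In cortex Hdac6 also had a negative ratio. The SCA3 libraries ran from 64.1 to 74.9 CPM (median 71.5, n = 6) and the wild-type libraries from 71.4 to 83.6 CPM (median 80.4, n = 7). Overlap came from a single wild-type library at 71.4 CPM. The log2 ratio was -0.17 (SE 0.07, unadjusted p = 0.021 by edgeR, FDR 0.94), so it was not called. The cerebellar ratio was -0.09 (SE 0.07) and the brainstem ratio 0.08 (SE 0.07).

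Hdac2 had a positive ratio in striatum. The SCA3 libraries stood at 110.1, 118.2, 117.4, 113.8 and 118.3 CPM, and the wild-type libraries ran from 83.3 to 115.8 CPM with a median of 105.6. The log2 ratio was 0.18 (SE 0.06, FDR 0.063). The high-score libraries held the lowest wild-type values, 83.3 and 83.6 CPM, and without them the ratio was 0.09 (SE 0.06, FDR 0.46). Hdac2 was called with DESeq2 (FDR 0.047), with RIN (FDR 0.035) or the number series (FDR 0.043) as a covariate, and without wild-type mouse 9082857, 9083371 or 9083375 (FDR 0.019, 0.036 and 0.043).

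Kat2b had positive genotype ratios in cortex and striatum that did not pass the test. The SCA3 cortex libraries stood at 33.4 to 48.4 CPM (median 38.0, n = 6) and the wild-type libraries at 24.2 to 36.1 CPM (median 32.4, n = 7), with the 2 groups overlapping between 33.4 and 36.1 CPM. The log2 ratio was 0.33 (SE 0.13, unadjusted p = 0.011 by edgeR, FDR 0.80), which did not pass. Its ratios were -0.02 (SE 0.12) in brainstem, 0.15 (SE 0.13) in cerebellum and 0.15 (SE 0.13) in striatum. The striatal ratio was 0.33 (SE 0.12, FDR 0.13) without the high-score libraries and 0.34 (SE 0.11, FDR 0.065) with the thalamic score as a covariate, larger by over 1.5 times in both fits and called in neither. The cortical ratio was 0.33 and 0.32 in the same fits.

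Kat2b was called in 3 regions when a score of oligodendrocyte markers was added to the fit. With the mature oligodendrocyte score as a covariate, chosen after the data were seen, Kat2b was called higher in SCA3 brainstem (log2 0.27, SE 0.09, FDR 0.033), cortex (log2 0.32, SE 0.07, FDR 0.0014) and striatum (log2 0.44, SE 0.08, FDR 1.2e-05). The cortical ratio hardly differed from that without the score (0.33), and its SE was 0.07 against 0.13. In that fit 5.63%, 1.24% and 7.8% of all genes were called in these regions. The summed markers ran from 11589 to 24148 CPM in wild-type and 10557 to 17714 CPM in SCA3 brainstem, with 4 of 14 markers called lower there and 0 called in cortex, where they summed to 2923 to 6092 and 3201 to 5425 CPM. The part of oligodendrocytes in the Kat2b levels was not tested beyond this fit.

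The remaining members were not called in any region by this fit; without wild-type mouse 9082857, Hdac1 and Hdac3 were called lower in striatum (FDR 0.037 and 0.045). In striatum Hdac1 had a ratio of -0.17 (SE 0.09, FDR 0.27), Hdac3 -0.10 (SE 0.06, FDR 0.34), Hdac4 0.07 (SE 0.12, FDR 0.77), Hdac5 -0.15 (SE 0.08, FDR 0.29) and Ep300 0.10 (SE 0.07, FDR 0.36). In brainstem the 10 ratios lay between -0.18 (Hdac9) and 0.11 (Hdac1), in cerebellum between -0.09 (Hdac6) and 0.15 (Kat2b), and in cortex between -0.17 (Hdac6) and 0.33 (Kat2b). Of the 38 uncalled comparisons, 34 had a 95% interval that held 0, and over all 38 the intervals lay between -0.53 and 0.58. A missed threshold does not show that levels were equal. The median absolute ratio of the members was 0.07 in brainstem (all genes 0.08), 0.05 in cerebellum (0.04), 0.08 in cortex (0.06) and 0.16 in striatum (0.11).

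**Figure D5:**
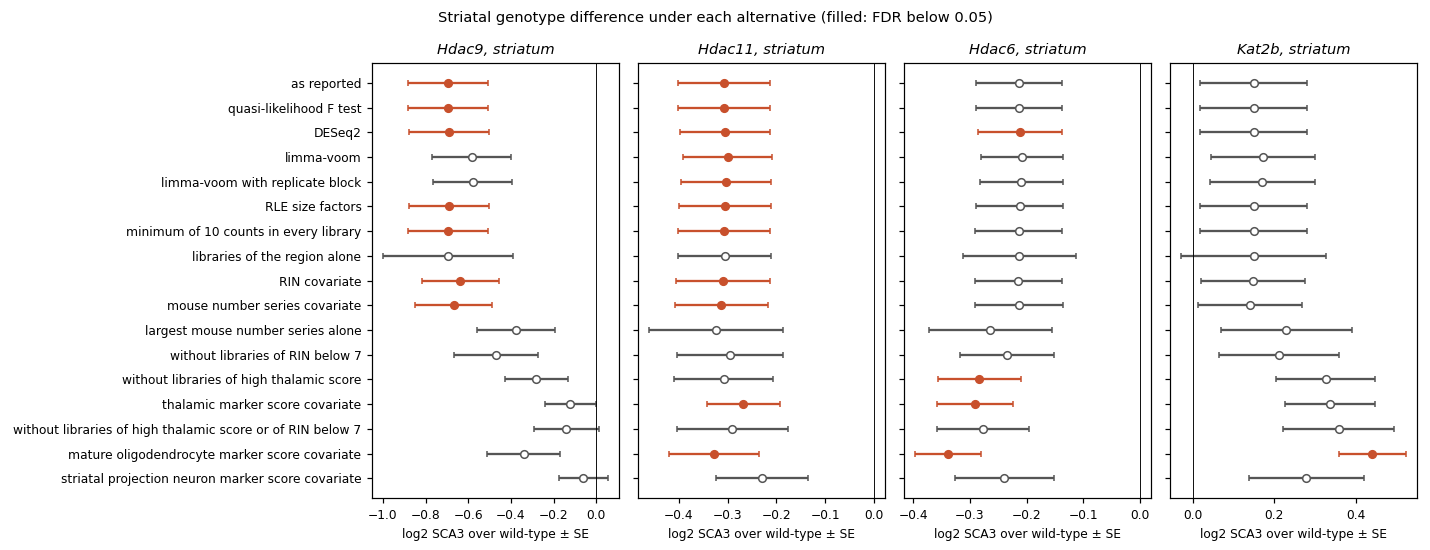
Striatal log2 ratio of SCA3 over wild-type with its SE for Hdac9, Hdac11, Hdac6 and Kat2b (panels, each with its own horizontal scale) under each alternative fit (rows), filled orange where the FDR is below 0.05. Hdac9 is -0.69 as reported and between -0.38 and -0.06 in the largest mouse series alone, without the high-score libraries and with a thalamic, oligodendrocyte or projection neuron score as covariate, Hdac11 stays between -0.33 and -0.23, and Kat2b reaches 0.44.

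Tests that joined the regions called no member with all libraries and no covariate. In the combined test of a genotype effect in any region (4.73% of all genes called), edgeR called 0 of 10 members and 4 had an unadjusted p below 0.05 (16.6% of all genes), with the smallest FDRs in Hdac6 (0.063), Hdac11 (0.076) and Hdac9 (0.093). Without the high-score libraries the combined test called Hdac6 and Kat2b (3.78% of all genes called), and with the thalamic score as a covariate it called Hdac6, Hdac11 and Kat2b (5.28%). The lowest FDRs in these fits were 0.00075 for Hdac6, 0.0060 for Kat2b and 0.019 for Hdac11. Leaving out 1 mouse at a time, it called Hdac9 in 3 of 14 fits (without mouse 9082853, 9082857 or 9083371), Hdac11 in 2 (without 9082857 or 9083375) and Hdac6 in 1 (without 7267059). In the test of region dependence (0.218% of all genes called), 0 of 10 were called and 3 had an unadjusted p below 0.05 (9.09% of all genes), namely Hdac6 (0.023), Hdac11 (0.027) and Hdac9 (0.029), each with an FDR of at least 0.42. The calls of Hdac9 and Hdac11 in striatum are therefore not shown to differ from the other regions.

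Of 109 other genes, of the acetylation machinery or partners of class IIa deacetylases, 107 were measured. In striatum 3 were called, where 7.54% of all genes were: Camk4, a calcium-dependent kinase that acts on class IIa deacetylases (334 CPM in wild-type, 506 in SCA3, log2 0.60, SE 0.18, FDR 0.023), Crebbp, the close relative of Ep300 (96.8 against 116 CPM, log2 0.26, SE 0.09, FDR 0.048), and Mta3, a subunit of the NuRD deacetylase complex (43.9 against 33.9 CPM, log2 -0.37, SE 0.11, FDR 0.015). In brainstem 1 was called, where 1.92% of all genes were, namely Clock, a circadian transcription factor with acetyltransferase activity (132 against 109 CPM, log2 -0.28, SE 0.07, FDR 0.0097). In cerebellum (0.0647% of all genes) and cortex (0.154%) 0 were called by edgeR. At an unadjusted p below 0.05 there were 30 of 107 in striatum (23.2% of all genes), 14 in brainstem (13.3%), 0 in cerebellum (1.66%) and 7 in cortex (4.07%). By role, the striatal calls were 1 of 14 other acetyltransferases, 1 of 35 deacetylase complex subunits and 1 of 15 class IIa partners, with 0 of 10 other deacetylases and sirtuins, 0 of 20 acetyltransferase complex subunits and 0 of 13 acetyl-lysine readers. The median log2 ratio of the 107 genes was 0.04 in brainstem and 0.03 in striatum, against 0.00 for all genes in both.

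The 3 striatal calls among these genes were lost with the choice of libraries. Camk4 was 0.52 (SE 0.20, FDR 0.15) without the high-score libraries and 0.51 (FDR 0.21) without those of RIN below 7. Crebbp was 0.20 (SE 0.10, FDR 0.28) and 0.24 (FDR 0.24) in the same fits. Mta3 was -0.28 (SE 0.11, FDR 0.16) and -0.32 (FDR 0.17). With the thalamic score as a covariate all 3 were likewise not called (log2 0.39, 0.17 and -0.15). Camk4 and Mta3 were each called in 8 of 13 alternatives and Crebbp in 5, counted as for Hdac9, and leaving out 1 mouse at a time called them in 7, 8 and 4 of 14 fits. In the same comparison 12 of 12 thalamic markers had negative and 12 of 12 projection neuron markers positive ratios, and with the projection neuron score as a covariate the ratios of Camk4, Crebbp and Mta3 were 0.25, 0.17 and -0.07, not called. Clock in brainstem was called in both fits that left out libraries (log2 -0.29 and -0.28, FDR 0.0049 and 0.019) and in 12 of 13 alternatives, the exception being RIN as a covariate (log2 -0.24, FDR 0.31). It was also not called with the oligodendrocyte score as a covariate (log2 -0.22, FDR 0.10) or without SCA3 mouse 9083514 or 9083515 (FDR 0.13 and 0.052).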

How the data were processed

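The authors deposited whole-number counts of reads per gene for 53 libraries, 1 per mouse and region. Per the labels and methods, unstranded poly-A libraries were read as pairs, trimmed with cutadapt 1.10, aligned to GRCm38 with STAR 2.3.0e and counted per gene with HTSeq 0.6.1 without strand, so reads of overlapping genes can be lost or mixed. Genes with a mean of at most 4 CPM had been removed by the authors; the lowest mean was 4.07 CPM.

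The counts were refitted with edgeR 4.0.16 (R 4.3.3): TMM scaling, 8 groups of region and genotype, likelihood ratio tests, and Benjamini-Hochberg adjustment over all 12372 genes. CPM used TMM totals, with a prior count of 2 for logs. The code was tested on simulated data. The rule for names was all 10 members in every comparison, and other acetylation or class IIa partner genes with an FDR below 0.05. Some uncalled member values are given only as ranges. The members and lists were chosen with earlier results of these data known. Each mouse gave several libraries, so libraries pair by animal: residuals around the group means of 2 regions of the same mice had a mean r of 0.0904 to 0.186 over the 6 region pairs. Genotype is fixed within a mouse, so each genotype comparison is unpaired.

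Alternatives were the quasi-likelihood test, DESeq2 1.42.0, limma-voom 3.58.1 with and without a mouse block, other scaling, count minimum, covariates and library subsets, and leaving out each mouse. Covariates for oligodendrocyte and projection neuron scores, and leaving out both high thalamic and low RIN libraries, were chosen after seeing the data.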

Additional observations from a re-analysis of the deposited data

Results flagged for a closer look

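Among 80 group values (10 members in 8 groups), 4 had a sample far from the others of its group by Dixon's test, where chance flags about 1 group in 20 (5%). Hdac1 in SCA3 cerebellum was lowest in mouse 9083515, at 15.7 CPM with the next value at 17.7. Hdac3 in wild-type cortex was lowest in mouse 9082857, at 89.8 CPM with the next at 104. Hdac5 in SCA3 brainstem was highest in mouse 9083514, at 264 CPM with the next at 206. Hdac5 in wild-type cortex was lowest in mouse 7267055, at 159 CPM with the next at 206. None of these groups belongs to a called genotype comparison.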

How the results depend on the processing

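The striatal count of members called between genotypes was 2 as reported. With the share of all genes called in the same fit, it was 4 with DESeq2 (9.39%), 3 with RIN (8.42%) or the number series (9.25%) as covariate (Hdac2 added in both), 3 with the oligodendrocyte score (7.8%; Hdac6, Hdac11 and Kat2b), 1 with limma-voom (5.63%) and with the replicate block for the mouse (limma-voom, 5.76%), Hdac11 in both, and 1 without libraries of high thalamic score (2.42%), which was Hdac6, with Hdac9 and Hdac11 both lost. It was 2 with the thalamic score (1.97%), Hdac6 and Hdac11. It was 0 without libraries of RIN below 7 (1.12%), in the largest mouse number series alone (0.242%), with the striatal libraries alone (0.711%), with the projection neuron score as covariate (0.404%), and without libraries of high thalamic score or low RIN (0.63%). Leaving out 1 mouse gave 0 to 6: 6 without wild-type mouse 9082857, where 14.8% of all genes were called, and 0 without SCA3 mouse 7267054 (3.23%), 7267056 (2.43%) or 9083515 (2.4%). The combined test called 0 as reported, 3 with the thalamic or the oligodendrocyte score as covariate, 2 without high-score libraries, 1 without high-score or low RIN libraries, and 0 to 2 with a mouse left out. With the oligodendrocyte score, 1 member was called in brainstem and 1 in cortex, Kat2b in both. In wild-type mice, cortex against striatum gave 4 called members and 1 to 4 with a mouse left out (1 without mouse 7267058).

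A sign changed with a call in 2 cases: Hdac9 brainstem over striatum (0.34 without high-score libraries, -0.07 as reported) and Kat2b in brainstem (0.27 with the oligodendrocyte score, -0.02 as reported). The cause was not tested. Of 60 alternative values for Hdac9 and Hdac11 in striatum, 34 kept the call and 26 lost it. Of 782 alternative values for called regional differences, 755 kept the call. Hdac9 in striatum was not called by limma-voom without the replicate block (FDR 0.051) or with it (FDR 0.052). Against limma-voom without the block, the block added the calls of Hdac11 between brainstem and striatum (FDR 0.036) and of Hdac4 between cortex and striatum (FDR 0.041) and changed no other member call.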
